A study of Homo sapiens with 2 samples.

Results

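The annexins measured here are 10 genes (ANXA1, ANXA2, ANXA3, ANXA4, ANXA5, ANXA6, ANXA7, ANXA9, ANXA10 and ANXA11), taken as every array probe whose RefSeq accession belongs to one of them, of 17240 named genes on the arrays. They were chosen because ANXA6 was higher upon RUNX2 knockdown, so the ANXA6 ratio is a description and supports nothing. The 10 genes were carried by 13 probes, 3 for ANXA2, 2 for ANXA11 and 1 for each other gene, and each probe was a single spot on each array. All 13 probes were well above background in both clones and both hybridizations, none carried an outlier flag, and no spot was saturated.

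RNA of a RUNX2 knockdown clone of SKOV3 cells, a human ovarian adenocarcinoma line, was compared with RNA of a control clone on 2-colour Agilent whole human genome arrays. The knockdown clone, cl-sh3, is 1 clone that carries a short hairpin RNA against RUNX2 in the pLKO.1-puro vector, and it was picked for the arrays because its growth and movement were inhibited more than those of another knockdown clone. The mock-transfected control is likewise 1 clone, with a scrambled sequence in the same lentiviral vector, and both clones had been selected in puromycin. Cy5 marked cl-sh3 in hybridization 1 and the control in hybridization 2, with Cy3 on the other RNA. As the same pair of RNAs was used, the arrays are 1 replicate and allow no test between the clones, and the distance between the hybridizations measures technical error only. A clone effect and a RUNX2 effect cannot be told apart. Each value below is the log2 ratio of cl-sh3 over control, from background-corrected intensities normalized by loess, a smooth correction for the dyes along the brightness scale. A probe was called changed when it was at least 2-fold (log2 ratio of 1) away from equal in the same direction in both hybridizations.

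Annexins are cytosolic proteins that bind negatively charged phospholipids when calcium rises, through a conserved core of annexin repeats. The short and variable N-terminal part sets the partner of each annexin, which for several is a small calcium-binding S100 protein. They are known for roles in membrane traffic, in sealing damaged plasma membrane and in linking membranes to the cytoskeleton, and ANXA1, ANXA2, ANXA4 and ANXA5 are widely expressed in epithelial tumours.

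RUNX2 itself, by its brightest probe, was at -2.04 and -1.30. A dimmer probe with that accession gave 0.17 and -0.13, and a probe of another accession gave -0.29 and -0.17. Of 41000 probes, 36060 had at least 1 clone well above background in both hybridizations and a value in each, and these are called kept probes. Between 77.3% and 93.9% of the spots of a channel carried the flag for well above background, and 5 of 6 matched marker genes of blood, endothelium and stroma had a kept probe, as had all 10 markers of epithelium and ovarian carcinoma. A kept probe therefore does not show that its gene is expressed. For kept probes the median distance between the hybridizations was 0.22 and the 95th percentile 0.63.

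ANXA6 was the only annexin at least 2-fold higher in both hybridizations. Among all kept probes, 0.122% met that rule for higher and 0.394% for lower, and the rule that chose the annexins used this contrast. ANXA6 is the annexin with a duplicated core, is found on late endosomes and at the plasma membrane, and is known to scaffold protein kinase C alpha and the Ras regulator RASA1 and to take part in cholesterol distribution. Its only probe (A_23_P357104, accession NM_001155) gave a median pixel signal of 1581 for cl-sh3 and 348 for the control in hybridization 1, over local backgrounds of 173 (Cy5) and 49 (Cy3). In hybridization 2 the signals were 1233 for cl-sh3 and 568 for the control, over 43.5 (Cy3) and 179.5 (Cy5). The control signals were dim, the lowest control signal of any annexin probe in each hybridization, so the ratio rests on a dim denominator. After normalization the log2 intensity of cl-sh3 was 10.06 and 10.30, against 8.80 and 8.58 for the control. The log2 ratios were 1.26 and 1.71, with a mean of 1.49 or 2.80-fold. Only 14 of the 36060 kept probes, ANXA6 among them, had a mean ratio this high. The 0.46 between its hybridizations was smaller than the mean, and less than the 0.66 that bounded 95% of the 1000 kept probes nearest to it in brightness. Of the 13 annexin probes, 12 lay within their own such bound. As the ANXA6 ratio chose the family, its rank and these distances describe it and lend it no support. As ANXA6 had no other probe, the ratio has no check within the gene. In bulk RNA, more ANXA6 transcript in every cell and in some cells only cannot be told apart.

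**Figure D1:**
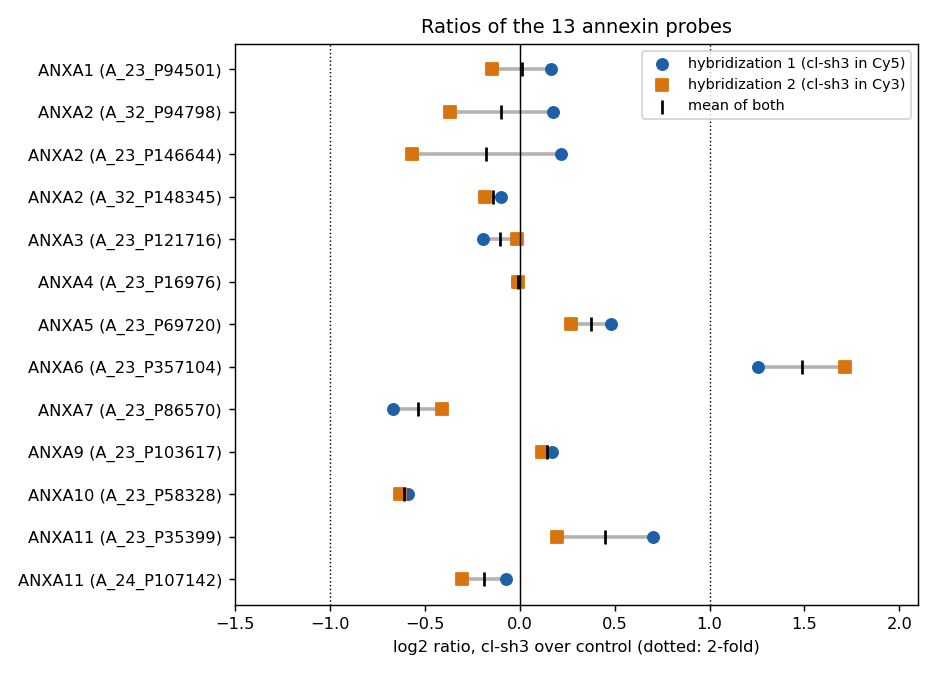
Log2 ratio of cl-sh3 over control (x axis) for each of the 13 annexin probes (y axis) in hybridization 1 (blue circles) and hybridization 2 (orange squares), with the mean as a black tick, a grey bar between the hybridizations and dotted lines at 2-fold. ANXA6 lies beyond 2-fold in both hybridizations, at 1.26 and 1.71, and every other probe lies between -0.67 and 0.70.

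The sequences around the ANXA6 starts are shown because ANXA6 is the annexin called changed and the knocked-down gene encodes a transcription factor. RUNX proteins are known to bind the core letters TGTGGT or TGCGGT. These were searched on both strands (as ACCACA and ACCGCA on the other) in RefSeq promoter windows of GRCh38.p14, from 250 bases before to 50 bases after a start. The windows cover all 10 annexins with 14 entries, of which ANXA6 has 2. Matches are in capitals, and each sequence is read 5′ to 3′ on the gene's strand, which for ANXA6 is the minus strand.

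ANXA6 upstream start, chr5:151157730-151158029: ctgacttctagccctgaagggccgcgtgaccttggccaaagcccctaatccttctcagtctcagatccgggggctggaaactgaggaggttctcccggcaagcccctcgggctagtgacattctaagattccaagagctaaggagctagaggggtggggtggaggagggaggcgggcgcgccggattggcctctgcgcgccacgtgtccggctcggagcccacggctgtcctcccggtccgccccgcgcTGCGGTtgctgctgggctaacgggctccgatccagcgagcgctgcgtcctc
ANXA6 downstream start, chr5:151141635-151141934: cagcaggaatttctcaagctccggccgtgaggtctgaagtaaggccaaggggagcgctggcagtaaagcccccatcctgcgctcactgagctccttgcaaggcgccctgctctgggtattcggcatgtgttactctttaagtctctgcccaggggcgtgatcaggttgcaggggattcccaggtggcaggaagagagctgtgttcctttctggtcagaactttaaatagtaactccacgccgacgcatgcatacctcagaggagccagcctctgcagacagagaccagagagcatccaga

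The upstream window holds 1 match, TGCGGT, whose first base is the last before the start (position -1), and the downstream window holds none. Over the family, 5 of the 14 entries (35.7%) held a match, against 19.6% of all 35116 entries. The 5 entries belong to 4 of the 10 genes, and 22.9% of all genes in the promoter table had a match. The other 4 matches are shown with 10 bases on each side, because ANXA3, ANXA5 and ANXA11 were not called changed and hold the same core letters.

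ANXA3, plus strand, chr4:78551734-78551759: gaggaaggggTGCGGTcgcgatccgg
ANXA5, minus strand, chr4:121697049-121697074: gcggccggccTGCGGTtggggccctg
ANXA11 most upstream start, minus strand, chr10:80206009-80206034: tgggaggaagACCACAagcggtgcat
ANXA11 most downstream start, minus strand, chr10:80204491-80204516: attcggcgttTGTGGTagctctcccc

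The genes with these windows had mean log2 ratios of 1.49 (ANXA6), 0.38 (ANXA5), -0.10 (ANXA3) and, for the probes of ANXA11, 0.45 and -0.19. The genes without a match had 0.14 (ANXA9), 0.01 (ANXA1), -0.01 (ANXA4), -0.54 (ANXA7) and -0.61 (ANXA10). The probes of ANXA2, also without a match, had -0.10, -0.14 and -0.18. The ANXA6 ratio chose the family, and a link between match and ratio was not tested. A match describes letters in a window and says nothing of binding, which these arrays did not measure.

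**Figure D2:**
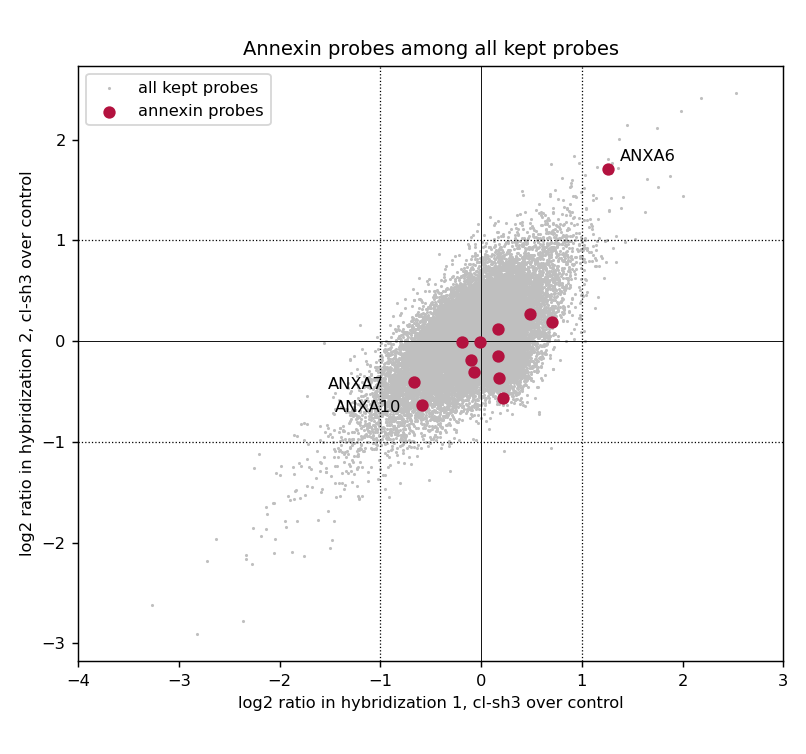
Log2 ratio of cl-sh3 over control in hybridization 1 (x axis) against hybridization 2 (y axis) for all 36060 kept probes (grey) and the 13 annexin probes (red), with dotted lines at 2-fold. ANXA6 lies in the upper right corner past 2-fold on both axes, while ANXA7 and ANXA10 are the annexins farthest to the lower left and stay inside 2-fold.

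The other 9 genes stayed within 2-fold with all of their 12 probes, in both hybridizations. Their mean ratios ran from -0.61 for ANXA10 to 0.45 for a probe of ANXA11. Counting all 13 probes, 4 were above 0 in both hybridizations, against 29.8% of all kept probes, 6 were below 0 in both, against 27.3%, and 3 had opposite signs. The median of the 13 mean ratios was -0.10 beside 0.01 for all kept probes. It was 0.17 in hybridization 1 and -0.14 in hybridization 2, so the family as a whole had no direction that held in both. Over genes, with the probes of a gene averaged, the median was 0.00.

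ANXA1 and ANXA2 are the annexins best known for S100 partners. ANXA1, a glucocorticoid-induced inhibitor of inflammation that acts through formyl peptide receptors, was at 0.17 and -0.14. Its normalized log2 intensities were 16.60 and 16.33 for cl-sh3 and 16.43 and 16.47 for the control, which overlap. ANXA2 forms a complex with S100A10 that binds plasminogen at the cell surface. Its bright probes A_32_P94798 and A_23_P146644 were at 0.18 and -0.37 and at 0.22 and -0.57, and the dim probe A_32_P148345 at -0.10 and -0.18. Thus the bright probes changed sign between the hybridizations, and the dim probe was slightly lower in cl-sh3 both times. The 0.78 between the hybridizations of A_23_P146644 was the only such difference among the 13 probes above the 95% bound for its brightness, which was 0.73. Other bright probes also differed between the hybridizations, in which dye and array cannot be told apart. Of 517 kept probes with a mean log2 intensity above 16, 71.2% had a higher ratio in hybridization 1 than in hybridization 2, with a median difference of 0.18, against -0.04 over all kept probes. All 3 ANXA2 probes carry 1 accession, and ANXA2 has processed pseudogenes of similar sequence on the same arrays, so probes of ANXA2 may bind several transcripts.

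ANXA7 and ANXA11 have long N-terminal parts that bind the calcium sensor PDCD6. ANXA7 (synexin), which fuses membranes of secretory granules, was lower in cl-sh3 in both hybridizations, at -0.67 and -0.41. Its normalized log2 intensities were 12.87 and 12.77 in cl-sh3, against 13.54 and 13.18 in the control. The mean difference was 1.45-fold, with 0.26 between the hybridizations. ANXA11, which also tethers RNA granules to lysosomes, was measured by 2 probes of 1 accession that disagreed. The brighter probe, A_23_P35399, was at 0.70 and 0.19, and the dimmer probe, A_24_P107142, at -0.07 and -0.30. Neither direction can be given for ANXA11.

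ANXA3, ANXA4 and ANXA5 have short N-terminal parts. ANXA5, the phosphatidylserine-binding annexin used to stain dying cells, was at 0.48 and 0.27, or 1.30-fold higher in the mean. Its log2 intensities were 15.81 and 15.60 in cl-sh3 and 15.33 and 15.33 in the control. ANXA4, an annexin of polarized epithelia, was the nearest to equal with -0.01 in each hybridization. ANXA3 was at -0.19 and -0.01.

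ANXA9 and ANXA10 depart from the family pattern, as ANXA9 lacks working calcium sites in its core and ANXA10 is expressed mainly in gastric epithelium. ANXA10 had the largest decrease of the 13 probes, at -0.59 and -0.63, which is 1.53-fold lower in the mean with 0.04 between the hybridizations. The signals behind it were dim, at 633 (cl-sh3) and 457 (control) over backgrounds of 127.5 and 45.5 in hybridization 1, and 344 and 708.5 over 45 and 171.5 in hybridization 2. ANXA9 was also dim, with signals from 394 to 922, and was at 0.17 and 0.12.

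**Figure D3:**
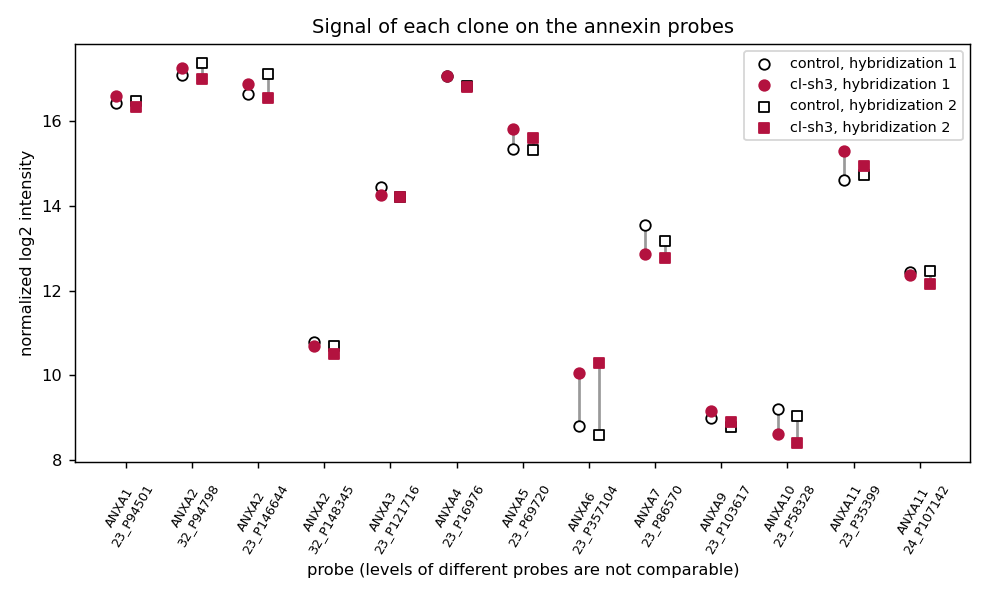
Normalized log2 intensity (y axis) of the control (open) and of cl-sh3 (red) for each annexin probe (x axis), in hybridization 1 (circles) and hybridization 2 (squares), with a line between the clones. The clones stand widest apart for ANXA6 in each hybridization, and the clones change places between the hybridizations for ANXA1 and the bright ANXA2 probes. Levels of different probes cannot be set against each other.

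By the mean ratio, the brightest probes of the 10 genes ordered as ANXA6, ANXA11, ANXA5, ANXA9, ANXA1, ANXA4, ANXA2, ANXA3, ANXA7 and ANXA10. The place of ANXA11 rests on its brighter probe, at 0.45, and its other probe, at -0.19, would put it between ANXA3 and ANXA7. The neighbours ANXA7 and ANXA10 differed by less than the distance between the hybridizations of ANXA7, as did ANXA11 and ANXA5 by that of ANXA11. The middle 5 genes, from ANXA9 to ANXA3, had means from -0.10 to 0.14, and each pair of neighbours among them differed by less than the distance between the hybridizations of at least 1 of the pair. The lower value of ANXA6, 1.26, was above the 0.70 that was the highest of any other annexin probe. As the family was chosen because ANXA6 was higher, this gap is a description and supports nothing. For 7 of the 13 probes, the mean lay farther from 0 than the hybridizations lay from each other. ANXA4 is among them although its mean is near 0. The share of all kept probes was not counted, so this says nothing particular of the annexins.

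Partner genes were taken from lists chosen from general knowledge, with the brightest kept probe standing for each gene. Of 20 S100 genes, 17 had a kept probe, and none was past 2-fold in both hybridizations. Of these 17, 8 were above 0 in both hybridizations and 5 below, with a median mean ratio of 0.06. Over all kept probes, counted by probe and not by gene, 29.8% were above 0 in both and 27.3% below. Of them 0.122% met the 2-fold rule for higher and 0.394% for lower, so lists this short would seldom hold a call. The same shares stand beside the counts of the lists below. S100A10, the ANXA2 partner, was at 0.67 and 0.89, and S100A11, the ANXA1 partner, at 0.71 and 0.53, with a dimmer probe at 0.82 and 0.52. By these probes, S100A10 was 1.71-fold and S100A11 1.54-fold higher in the mean, while the bright annexin probes themselves changed sign between the hybridizations. S100A4, named after its value was seen, had the highest ratio of the list, at 1.13 and 0.74.

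Of 15 genes of annexin-binding proteins and receptors, 0 were called with any probe, 3 were above 0 in both hybridizations and 5 below, and the median was -0.04. PDCD6, the partner of ANXA7 and ANXA11, was at -0.15 and -0.17. SRI (sorcin), a calcium-binding partner of ANXA7, had a brighter probe at 0.05 and 0.38 and a dimmer probe of the same accession at -0.74 and -0.76, so its probes disagreed. Of 15 genes of plasma membrane repair, 14 had a kept probe, with 8 above 0 in both hybridizations, 2 below and a median of 0.17. CHMP4B, a subunit of the ESCRT-III filaments that pinch off damaged membrane, was called higher with 1 of its probes, at 1.26 and 1.81. Its brighter probe, for the same transcript accession, gave 0.06 and 0.28. MYOF (myoferlin), a membrane protein of the ferlin family that takes part in membrane fusion, had the lowest ratio of the repair list, with its brightest probe at -0.78 and -1.08, or 1.90-fold lower in the mean. Its other probes gave -0.64 and -0.43, and -0.60 and -0.33, so that all were below 0 in both hybridizations. PDCD6IP (ALIX), a PDCD6 partner that recruits ESCRT-III, was also below 0 with every probe, the brightest at -0.63 and -0.16. EHD1, a membrane-remodelling ATPase, had the highest brightest-probe ratio, at 0.69 and 0.84. MYOF, PDCD6IP and EHD1 are named after their values were seen. Of 9 copines, another family of calcium-dependent phospholipid-binding proteins, 8 had a kept probe and 0 were called, with a median of 0.03. The annexins by their brightest probes had a median of 0.00.

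**Figure D4:**
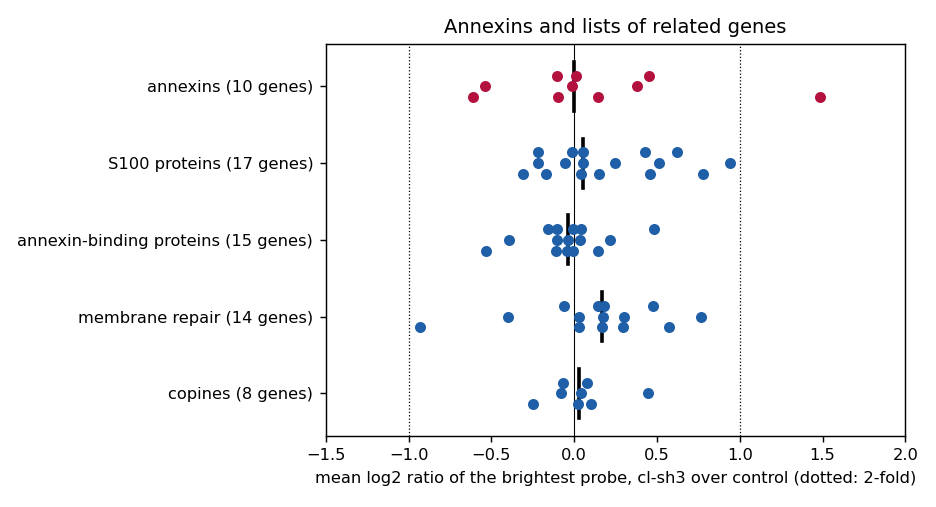
Mean log2 ratio of cl-sh3 over control (x axis) of the brightest kept probe of each gene, for the annexins (red) and 4 lists of related genes (blue), with black bars at the medians and dotted lines at 2-fold. ANXA6 at 1.49 is the only gene shown past 2-fold, and the medians of the lists lie between -0.04 and 0.17. The vertical scatter within a list has no meaning.

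The direction of some annexins near 0 depended on the loess step. Centring each array on its median, in place of loess, raised the ratios of the bright probes. ANXA4 went from -0.01 to 0.23, ANXA3 from -0.10 to 0.02, and the bright ANXA2 probes A_32_P94798 and A_23_P146644 from -0.10 to 0.15 and from -0.18 to 0.05. These 4 probes were the ones whose mean changed sign in any of the 9 other settings that used both arrays. ANXA6 ranged from 1.30 without background correction to 1.72 with the ratios of the scanner software, and its call held in each, although 3 of these settings could not alter an annexin ratio.

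**Figure D5:**
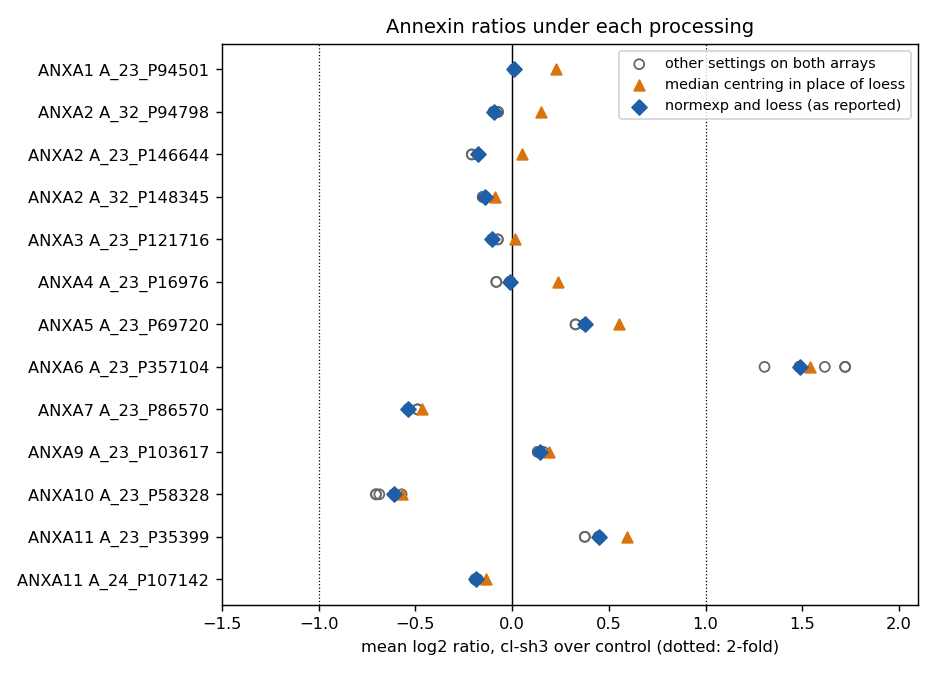
Mean log2 ratio of cl-sh3 over control (x axis) of each annexin probe (y axis) as reported (blue diamonds), with median centring in place of loess (orange triangles) and under the other settings that used both arrays (open circles), with dotted lines at 2-fold. ANXA6 stays past 2-fold from 1.30 to 1.72, and median centring takes the bright ANXA2 and ANXA4 probes and ANXA3 across 0.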

How the data were processed

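The authors deposited 1 Feature Extraction file per hybridization, with the unnormalized intensity of each spot and its local background, and log10 ratios (Cy5 over Cy3) that the scanner software had corrected for background and dye. The file headers give version 10.5.1.1, the labels 8.5.1.1. The deposited series table of log10 ratios gave nearly equal values.

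Using limma 3.58.1 (R 4.3.3), background was removed from median pixel intensities by normexp, offset 50. Control spots were then removed, 153 and 144 outlier-flagged spots set to missing, and each array normalized by loess. An RNA was well above background when the software had so flagged at least 50% of the spots of a probe. Of negative control spots, 0% to 1.96% per channel were so flagged. Accessions were named through RefSeq (GRCh38.p14), which with 1 further RUNX2 accession named from the study's supplement covered 18024 of 32890. Array annotation was on hg18, so only promoter coordinates are given. In a simulated cl-sh3 over control dye swap of 41000 probes, 192 of 200 changed probes and 0 others were called. All planted changes lay beyond the 2-fold cut, and the noise was set and not taken from these arrays. The simulation thus checks the steps and gives no error rate for the calls above. The main limit is the 1 pair of RNAs, from 1 knockdown clone and 1 control clone. Members and lists were chosen with earlier results of these data known, and every member probe is reported. Python 3.11.15 was also used.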

Additional observations from a re-analysis of the deposited data

How the results depend on the processing

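The count was 1 annexin probe at least 2-fold higher and 0 lower. It was the same with uncorrected background, normexp at offset 0, median centring, flagged spots kept, and log ratios from the software. The deposited table gave the same count but holds nearly the same ratios as the software, so it adds nothing. Each hybridization alone and a 2-fold rule on the mean also gave it, but the values of the hybridizations already fix that outcome. Aquantile after loess, no detection filter and both RNAs well above background were also run, but leave the ratios of these 13 probes as they are by construction and say nothing of stability. The median ratio of the annexin probes was -0.10 as reported and 0.15 with median centring in place of loess. With a single hybridization it was between -0.14 and 0.17. ANXA6 alone was between 1.26 and 1.71, and RUNX2 between -2.04 and -1.30. For single annexin probes other than ANXA6, 12 values in settings on both arrays moved by more than 1 SD of the values in the hybridizations (which is smaller than their distance) and 96 did not, those of the 3 settings without effect included. The count depends on how close the hybridizations of a probe lay, so it does not rank the probes by stability. ANXA4, with 0.0017 between its hybridizations, counted as moved from -0.0104 to -0.0124 with flagged spots kept. The ANXA2 probe A_32_P94798, with 0.55 between them, counted as not moved from -0.10 to 0.15 with median centring. The cause of the moves was not tested. The median of all kept probes shifted by at most 0.02 in the settings on both arrays. Over all kept probes, 44 were called higher and 142 lower as reported, 77 and 124 with median centring, and 103 and 253 with the software's ratios. No paired analysis was possible because the arrays are 1 pair of RNAs. Dim probes depended most on the offset, which draws their ratios towards 0. At offset 0, ANXA10 went from -0.61 to -0.69 and ANXA6 from 1.49 to 1.62. The 95% bound on the distance between the hybridizations was 0.59 near ANXA10 and 0.73 near the brightest annexin probes.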

Other observations

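Probes named for annexins outside the 10 genes were also measured. The pseudogenes ANXA2P1 and ANXA2P3, which resemble ANXA2 in sequence, were at -0.45 and -0.30 and at -0.29 and -0.28, below 0 each time, as was the dim ANXA2 probe. ANXA2R, an ANXA2 receptor gene, was at 0.26 and 0.23. The probes of ANXA13, an annexin of gut and kidney epithelium, had mean ratios of 0.04 and -0.07. ANXA8 and ANXA8L1 matched no accession on the arrays.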
